A study of Sus scrofa with 20 samples.

Results

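Transcripts of 4 cytochrome P450 enzymes that take part in the clearance of skatole, CYP2E1, CYP2A19, CYP1A1 and CYP1A2, were followed in testis and liver of boars with high and low androstenone. The members were chosen by gene symbol, and all 4 of the 4 symbols were paired with 1 reference ID each among 21755 reference IDs, of which 6654 carried a symbol. The IDs were NM_214421.1 for CYP2E1, NM_214417.1 for CYP2A19, NM_214412.1 for CYP1A1 and NM_001159614.1 for CYP1A2. In the RefSeq table of Sscrofa11.1, CYP2E1 lies on chromosome 14, CYP2A19 on chromosome 6, and CYP1A1 and CYP1A2 next to each other on chromosome 7. The reads were aligned to transcripts of another build, so no coordinates are given.

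Gut bacteria turn part of the amino acid tryptophan into skatole, a compound with a faecal smell. It is taken up into the blood and oxidised in the liver by cytochrome P450 enzymes, after which other enzymes conjugate the products for excretion. Where this clearance is slow, skatole builds up in fat, where it causes boar taint together with androstenone, a steroid pheromone made in the Leydig cells of the testis. CYP2E1, which also oxidises ethanol and other small molecules, and CYP2A19, the pig enzyme of the coumarin hydroxylase family, are regarded as the main P450s of skatole oxidation. CYP1A1 and CYP1A2 are both controlled by the aryl hydrocarbon receptor (AHR). CYP1A2 is a liver enzyme that metabolises caffeine, while CYP1A1 is known as an inducible enzyme of many tissues.

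RNA-Seq counts came from 20 samples in 4 groups of 5, testis low androstenone, testis high androstenone, liver low androstenone and liver high androstenone. All animals were boars of one cross, in which Duroc was mated to an F2. The F2 derived from Leicoma x German Landrace F1 animals and the Large White pig. The labels give an age of 116 days for every sample, which the study states as an average at slaughter. By the study's methods, RNA came from testis and liver of 10 boars, 5 in each androstenone class, so the samples of a group are separate boars and the tissues share boars. The labels give the androstenone class but no skatole value, and do not say that a replicate number marks the same boar in both tissues, so the tissue and interaction fits treated the 20 samples as separate. The study set the androstenone groups against each other within each tissue to look for transcripts related to boar taint.

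A testis library held 6161397 to 15975386 counts and a liver library 5796973 to 26783002. Levels are given as counts per 1000000 counts (CPM) after TMM scaling over the 20 samples. At these depths 3 counts stood for 0.188 to 0.487 CPM in testis and 0.112 to 0.518 CPM in liver before scaling, and a value under this floor could not be told from 0, counting error alone considered. The labelled tissues carried their markers. The 7 matched hepatocyte markers, such as albumin (ALB), summed to 92606 to 267065 CPM in the livers and 33.7 to 120.8 CPM in the testes, and every liver lay above every testis for each of the 7. All 3 matched germ cell markers and 3 of the 4 matched Leydig cell markers lay below every testis in every liver. Levels were compared between samples for one gene at a time and not between genes, since the length of the transcripts was not used.

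All 4 P450 transcripts were higher in liver than in testis, and the size of the difference ran from 11.6-fold for CYP1A2 to 1248-fold for CYP2E1 in the fitted values. In testis, CYP2E1 gave 5 to 115 counts per library and CYP2A19 and CYP1A1 at most 3 and 11, whereas CYP1A2 gave 155 to 1598 counts in 9 of the 10 testes and 2 counts in the other one. Each of the 4 fitted differences was called by the edgeR test, which treated the samples as separate. In bulk tissue, fewer cells that express a gene and less RNA per cell cannot be told apart.

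For CYP2E1, the livers of the low androstenone group gave 7444, 4117, 2734, 4204 and 6781 CPM for replicates 1 to 5. Those of the high androstenone group gave 6035, 2410.0, 4624, 1513 and 622 CPM. The testes gave 4.38, 0.534, 5.08, 3.01 and 2.47 CPM in the low group and 3.67, 3.33, 2.49, 3.81 and 2.30 CPM in the high group. The lowest liver, at 622 CPM, lay far above the highest testis, at 5.08 CPM, and the tissues did not overlap. The mean was 4048 ± 2258 CPM (SD, n = 10) in liver and 3.11 ± 1.27 CPM (SD, n = 10) in testis. The log2 fold change was 10.29 (SE 0.51, 95% interval 9.24 to 11.33, edgeR quasi-likelihood test, adjusted p = 1.27e-15). In liver, this single transcript held between 0.0545% and 0.504% of all counts of a library.

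For CYP2A19, the liver values were 44.9, 76.3, 0.147, 12.5 and 13.2 CPM in the low androstenone group and 69.0, 0.625, 0.798, 11.9 and 0.916 CPM in the high group. In counts these were 422, 1021, 1, 66 and 117, and 714, 3, 11, 53 and 5. The livers therefore fell into 2 sets with no value in between, 6 livers from 11.9 CPM upwards and 4 livers below 1 CPM, of which 2 held at most 3 counts. One of the 4 was a low androstenone liver and the others were high androstenone livers. In testis, 6 counts were found in all 10 libraries together, 6 of which held 0, and none held more than 3. Over the summed counts, 2413 in liver and 6 in testis, the ratio per total count was 344 with a 95% counting interval of 158 to 937. The fitted log2 fold change was 8.83 (SE 1.10, edgeR adjusted p = 7.39e-08), which depends on the prior count because so few testis counts exist. The lowest liver, with 1 count, could not be separated from the testes at this depth.

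For CYP1A1, the livers gave 18.6, 6.50, 33.6, 20.8 and 31.6 CPM in the low androstenone group and 7.63, 9.16, 70.7, 4.49 and 1.65 CPM in the high group. The testes gave 0, 0.427, 0.486, 0.328 and 0.696 CPM in the low group and 0.213, 0.432, 0.766, 0 and 0.288 CPM in the high group, 57 counts in all. Every liver lay above every testis, with the liver at 1.65 CPM (9 counts) nearest to them. The mean was 20.5 ± 20.9 CPM (SD, n = 10) in liver and 0.364 ± 0.256 CPM (SD, n = 10) in testis. The log2 fold change was 5.74 (SE 0.60, 95% interval 4.49 to 6.98, edgeR adjusted p = 3.66e-09).

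For CYP1A2, the livers gave 398, 204, 915, 531 and 443 CPM in the low androstenone group and 277, 117, 1595, 130.4 and 58.3 CPM in the high group. The testes gave 0.195, 16.6, 32.9, 29.9 and 70.9 CPM in the low group and 24.5, 69.1, 32.3, 43.2 and 97.0 CPM in the high group. Here the tissues overlapped. The lowest liver, high androstenone replicate 5, lay below 3 of the testes, and the other 9 livers lay above all 10. The log2 fold change was 3.54 (SE 0.61, 95% interval 2.28 to 4.80, edgeR adjusted p = 1.14e-05). CYP1A2 had the smallest of the 4 fitted tissue differences, and 6340 counts in the testes.

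**Figure D1:**
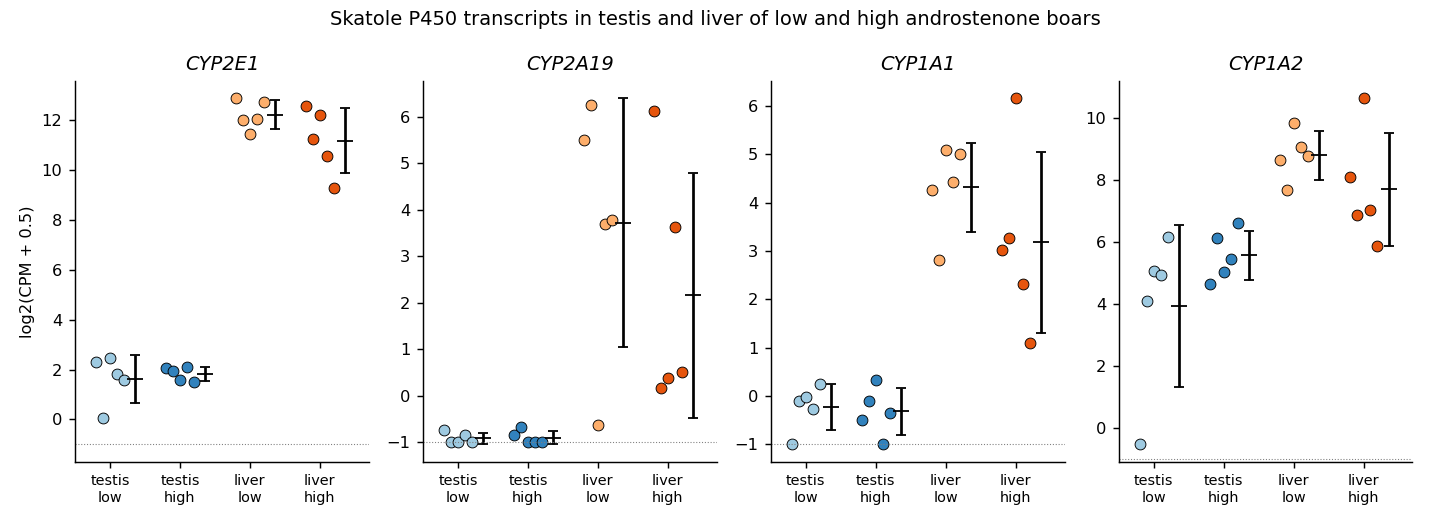
Each panel plots 1 gene as log2(CPM + 0.5) in the 5 libraries of each group, one point per library, with the group mean and SD beside the points, and the dotted line marks 0 counts. CYP2E1 and CYP1A1 did not overlap between tissues, 4 livers of CYP2A19 lay below 1 CPM near the testes, and 1 liver of CYP1A2 (58.3 CPM) lay within the range of the testes.

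All 4 genes were called higher in liver (adjusted p below 0.05 with a change of 1.5-fold or more), and so were 32.2% of the 19065 IDs tested, while 43.5% were called higher in testis. The tissues differed so widely that 75.7% of IDs were called in one direction or the other. After TMM scaling, every liver lay above every testis for 3 of the 4 genes, CYP2E1, CYP2A19 and CYP1A1, against 15.3% of IDs. For CYP2A19 this depended on the scale, since its lowest liver held 1 count. With the total count alone, that liver (0.116 CPM) lay below testis high replicate 2 (3 counts, 0.188 CPM). The median log2 fold change over the 4 genes was 7.28, against -0.31 over all IDs tested. With the total count alone as the scale, the median over all IDs moved to -1.28 and the share of calls that were higher in liver fell from 42.6% to 24.0%, and the 4 genes gave 9.27, 7.98, 4.63 and 2.46 for CYP2E1, CYP2A19, CYP1A1 and CYP1A2, all still called. Leaving out liver high replicate 3 lowered CYP1A1 to 4.87 and CYP1A2 to 2.75, and leaving out liver high replicate 1 lowered CYP2A19 to 7.66, all still called.

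Ratios of counts within a library were also taken. CYP1A2 gave between 0.734 and 9.60 counts per 1000 ALB counts in the livers and between 87.0 and 140125 in the testes. CYP2E1 gave 7.95 to 74.8 counts per 1000 ALB counts in the livers and 117 to 4875 in the testes. The testes held only 8 to 588 ALB counts per library, and the highest ratios of both genes were those of testis low replicate 5, with 8. Whether liver RNA was present in the testis samples was not tested. The ratio of the 2 CYP1A genes was taken too. For 100 counts of CYP1A2, the livers held 2.76 to 7.80 counts of CYP1A1 (median 3.798) and the testes 0 to 2.58 (median 0.924). The ranges did not overlap, but the testis ratios rest on 0 to 11 counts of CYP1A1 per library. The highest testis ratio (4 counts of CYP1A1 against 155 of CYP1A2) lay near the lowest liver ratio (79 against 2867). A difference in this ratio between tissues was not tested. Among the testes, low replicate 1 stood apart with 2 counts of CYP1A2, 0.195 CPM, while the other 9 gave 16.6 CPM or more. The same library gave 4.38 CPM of CYP2E1, the second highest value in testis.

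That library also had the lowest summed level of the 4 matched Leydig cell markers, 694 CPM, against 823 to 3406 CPM in the other 9 testes. Of 18 relations of CYP1A2 and CYP2E1 with the summed levels of 9 marker lists over the 10 testes, computed after these values were seen, the one of CYP1A2 with the Leydig cell markers had the smallest p. Pearson's r was 0.730 (permutation p = 0.00370, adjusted p = 0.0666) and Spearman's rho was 0.770 (permutation p = 0.0130, adjusted p = 0.235). Without testis low replicate 1 and testis high replicate 2, r was 0.570, and after centring the androstenone groups it was 0.711 (exact permutation p = 0.0268). Over the 9 testes without low replicate 1 it was 0.640 (exact permutation p = 0.0651). None of the 18 passed after adjustment, and the part of Leydig cell content in the level of CYP1A2 was not tested.

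In liver, none of the 4 genes was called between the androstenone groups, and 0% of the 15855 IDs tested were called. The study itself, with DESeq, called genes between the androstenone groups in both tissues, none of them among these 4. The edgeR test found an unadjusted p under 0.05 for 465 IDs (2.93%), and none of the 4 genes was among them. All 4 fitted differences were negative, with a median log2 fold change of -0.46 against 0.01 over all IDs, but each was smaller than 1.5 times its own standard error. The intervals were wide and included both a fall and a rise, so these data do not show that the groups had equal levels.

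CYP2E1 was 5056 ± 1980 CPM (SD, n = 5) in the livers of the low group and 3041 ± 2239 CPM (SD, n = 5) in those of the high group. Of the high androstenone livers, 3 lay below every low androstenone liver, namely replicates 2, 4 and 5, and the other 2 lay within the range of the low group. The log2 fold change was -0.69 (SE 0.50, 95% interval -1.76 to 0.38, edgeR adjusted p = 0.9999). The difference in mean log2 value was -1.05, with p = 0.119 in the exact two-sided permutation test, where 5 against 5 allow no p below 0.00794. Without replicate 1 of the high group the log2 fold change was -1.07, and without replicate 5 of that group it was -0.43.

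CYP2A19 was 29.4 ± 31.0 CPM (SD, n = 5) in the low group and 16.6 ± 29.7 CPM (SD, n = 5) in the high group, each SD larger than its mean. Both sets of livers, those above 11 CPM and those below 1 CPM, occurred in both androstenone groups. The log2 fold change was -0.73 (SE 1.15, 95% interval -3.20 to 1.73, edgeR adjusted p = 0.9999). The difference in mean log2 value was -1.56 (exact permutation p = 0.397). In the high group, 82.9% of the summed CPM came from replicate 1, without which the log2 fold change was -2.95 (edgeR unadjusted p = 0.0232, adjusted p = 0.99998). Without replicate 2 of the low group, which held the most CYP2A19, it was -0.01.

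CYP1A1 and CYP1A2 gave almost the same differences between the groups. CYP1A1 was 22.2 ± 10.9 CPM (SD, n = 5) in the low group and 18.7 ± 29.2 CPM (SD, n = 5) in the high group, and CYP1A2 was 498 ± 262 CPM and 436 ± 653 CPM. For CYP1A2, 3 of the high androstenone livers (replicates 2, 4 and 5) lay below all low androstenone livers and 1 (replicate 3) above all of them. Replicate 3 held 75.5% of the CYP1A1 and 73.2% of the CYP1A2 of its group. The log2 fold changes were -0.22 for CYP1A1 (SE 0.75, 95% interval -1.82 to 1.37) and -0.21 for CYP1A2 (SE 0.72, 95% interval -1.75 to 1.34), both at an edgeR adjusted p of 0.9999. The differences in mean log2 value, in which a single high value weighs less, were -1.14 and -1.09, and the exact permutation test of these gave p = 0.270 for each. Without replicate 3 of the high group the edgeR log2 fold changes became -1.89 (unadjusted p = 0.00245) and -1.74 (unadjusted p = 0.00279), still with an edgeR adjusted p of 0.9999. Without replicate 3 of the low group the edgeR log2 fold changes became 0.01 and 0.18. The sign and size of both fold changes thus changed with single livers.

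**Figure D2:**
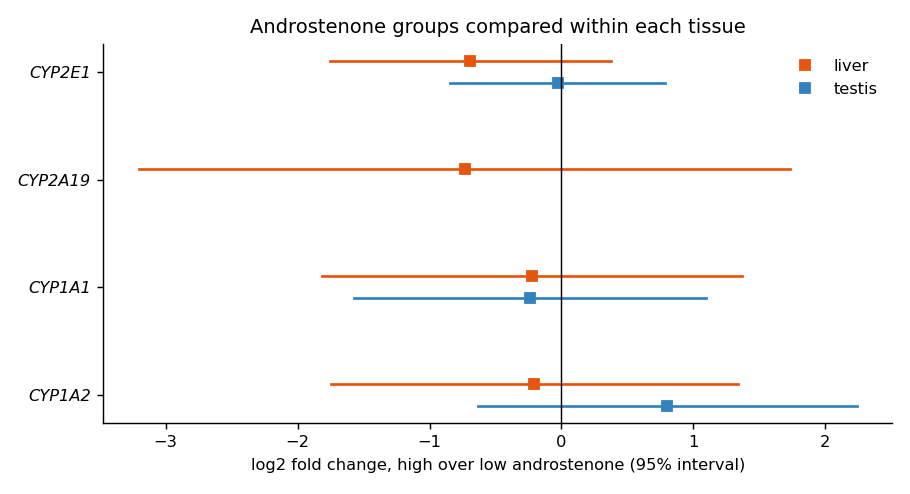
Points give the log2 fold change of high over low androstenone for each gene in liver and in testis, with lines for the 95% interval from edgeR (5 against 5 libraries). Every interval includes 0, and CYP2A19 is not shown in testis, where it had too few counts to be tested.

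Total counts differed between the livers, and no relation of a member with them passed after adjustment. The 5 livers with the fewest total counts (5796973 to 8593568) gave 622 to 4204 CPM of CYP2E1, and the 5 with the most (12862106 to 26783002) gave 4117 to 7444 CPM. The correlation with log2 total count over the 10 livers was r = 0.649 (permutation p = 0.0379, adjusted over 4 genes p = 0.151) and rho = 0.624 (permutation p = 0.0613, adjusted p = 0.205), and r was 0.787 without liver high 3 and liver low 2. For CYP1A1 and CYP1A2 r was 0.520 and 0.553, with an adjusted permutation p of 0.154 for both. For CYP2A19 it was 0.716 over the 6 livers of the upper set, with the same adjusted p from an exact permutation test, and 0.169 without liver high 4 and liver low 4. The rho of these 3 genes were 0.467, 0.442 and 0.771, with an adjusted permutation p of 0.205 each. Of the 5 livers with fewer counts, 3 were high androstenone livers, the same 3 that gave the lowest CYP2E1. Within these 5 livers, the mean CYP2E1 was 1515 CPM in the high group (n = 3) and 3469 CPM in the low group (n = 2), a difference of -1.37 in mean log2 value. Within the 5 livers with more counts it was 5329 CPM (n = 2) and 6114 CPM (n = 3), a difference of -0.17. For CYP1A2, the differences in mean log2 value were -2.85 and 1.01 in the livers with fewer and with more counts, for CYP1A1 -2.52 and 0.57, and for CYP2A19 -0.10 and -1.94. With the split of the livers by total count as a covariate, the edgeR log2 fold changes were -0.66, -0.36, -0.58 and -0.66 for CYP2E1, CYP2A19, CYP1A1 and CYP1A2, with an adjusted p of 0.99997, a fit chosen after the data were seen. The part of depth in these levels was not tested further.

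In testis, none of the 3 genes that could be tested was called, and 0% of 18340 IDs were called. An unadjusted p under 0.05 was found for 1741 IDs (9.49%), none of which was one of the 3 genes, and DESeq2 called 52 IDs. Without testis low replicate 5, edgeR called 2. CYP2E1 was 3.09 ± 1.77 CPM (SD, n = 5) in the low group and 3.12 ± 0.686 CPM (SD, n = 5) in the high group. Its log2 fold change was -0.03 (SE 0.38, 95% interval -0.85 to 0.79, edgeR adjusted p = 0.986). CYP1A1 was 0.387 ± 0.255 CPM and 0.340 ± 0.285 CPM (SD, n = 5 each), a log2 fold change of -0.24 (SE 0.63, 95% interval -1.57 to 1.09, edgeR adjusted p = 0.926). CYP1A2 was 30.1 ± 26.2 CPM and 53.2 ± 29.7 CPM (SD, n = 5 each). Its log2 fold change was 0.80 (SE 0.67, 95% interval -0.64 to 2.24, edgeR adjusted p = 0.723, exact permutation p = 0.190). Without testis low replicate 1, the library with 2 counts, it was 0.49, without high replicate 5 it was 0.47 and without low replicate 5 it was 1.39. For CYP2E1 the mean of the log2 values was 0.20 higher in the high group, the other sign from the fit (exact permutation p = 0.810). None of the genes had non-overlapping groups in testis, where 1.86% of IDs tested did. CYP2A19 had fewer than 10 counts in testis and was not tested there.

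The androstenone difference was also compared between the tissues, as the liver difference minus the testis difference. It was -0.73 for CYP2E1 (SE 0.71, 95% interval -2.19 to 0.72) and -1.01 for CYP1A2 (SE 1.11, 95% interval -3.31 to 1.29). For CYP1A1 it was 0.01. The SE was derived from the fold change and the F statistic, which is unreliable for a fold change this close to 0. The derived SE of CYP1A1, 0.69, lay below the 0.75 of its liver difference alone, so no interval is given. For CYP2A19 the value of -1.60 had an interval of -8.01 to 4.81 and says little, since the testis counts were at the limit. Without liver high replicate 3 the values were -1.72 for CYP1A1 and -2.59 for CYP1A2, and without liver high replicate 1 they were -1.14 for CYP2E1 and -3.95 for CYP2A19. All 4 adjusted p from edgeR with all samples were 0.99999. Of the 19065 IDs tested, 0% were called and 890 (4.67%) had an unadjusted p under 0.05, with none of the 4 genes among them. DESeq2 called 2 IDs.

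The spread between boars in liver was large for all 4 genes. The SD of log2(CPM + 0.5) over the 10 livers was 1.11 for CYP2E1, 2.63 for CYP2A19, 1.51 for CYP1A1 and 1.44 for CYP1A2. Over the 6376 IDs with a mean of at least 10 CPM in liver the median SD was 0.51, with quartiles of 0.37 and 0.68. The 4 genes stood at the percentiles 96.2, 99.97, 99.2 and 98.9 of this distribution, in the same order. The highest liver exceeded the lowest 11.96-fold for CYP2E1, 42.9-fold for CYP1A1 and 27.4-fold for CYP1A2. No such ratio is given for CYP2A19, whose lowest liver held 1 count. The coefficient of variation was 55.8% for CYP2E1, 128% for CYP2A19, 102% for CYP1A1 and 101% for CYP1A2. The gene-wise dispersion in the edgeR fit of the androstenone groups, which leaves the group difference out, was 1.47 times the trend for CYP2E1, 8.74 times for CYP2A19, 3.74 times for CYP1A1 and 3.14 times for CYP1A2.

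Within the androstenone groups, the SD of CYP2E1 was 0.59 in the low and 1.31 in the high group, that of CYP1A1 0.92 and 1.87, and that of CYP1A2 0.78 and 1.82. For CYP2A19 it was 2.67 and 2.63. The difference in SD between the groups was not tested. How many of all IDs had a larger SD in the high group was not counted, so these values show no trait of the 4 genes. In testis, the SD of log2 values over the 10 libraries was 0.68 for CYP2E1, 0.46 for CYP1A1 and 2.01 for CYP1A2, the last of which included the library with 2 counts.

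**Figure D3:**
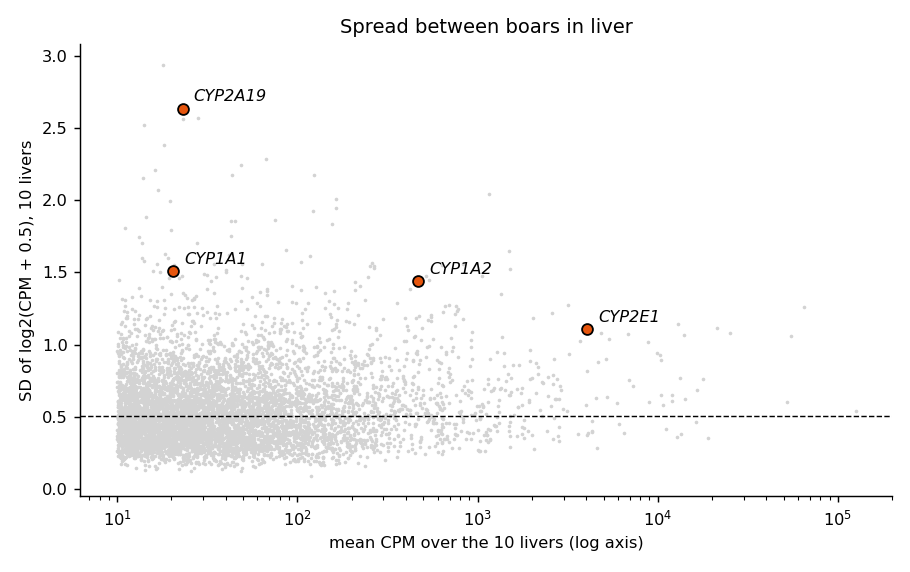
Grey points are the 6376 reference IDs with a mean of at least 10 CPM in liver, by mean CPM on a log axis and SD of log2(CPM + 0.5) over the 10 livers, with the median SD of 0.51 as a dashed line. The 4 P450 genes lie between 1.11 and 2.63, with CYP2A19 near the top of the distribution.

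The livers were not ordered alike by the 4 genes. Liver high replicate 5 was the lowest of the 10 for CYP2E1, CYP1A1 and CYP1A2, and liver high replicate 3 was the highest for both CYP1A genes but ranked 4 for CYP2E1 and 8 for CYP2A19. Liver low replicate 3 was the second highest for both CYP1A genes and the lowest for CYP2A19, with 1 count. Liver low replicate 2 showed the reverse, with rank 1 for CYP2A19 and rank 8 for CYP1A1. Liver low replicate 1 held the highest CYP2E1 and the third highest CYP2A19. The summed hepatocyte markers were lowest in liver high replicate 5 (92606 CPM), liver high replicate 4 (98914 CPM) and liver low replicate 4 (100525 CPM), which gave 622, 1513 and 4204 CPM of CYP2E1, and highest in liver low replicate 5 (267065 CPM), which gave 6781 CPM. The part of hepatocyte content in the levels was not tested.

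**Figure D4:**
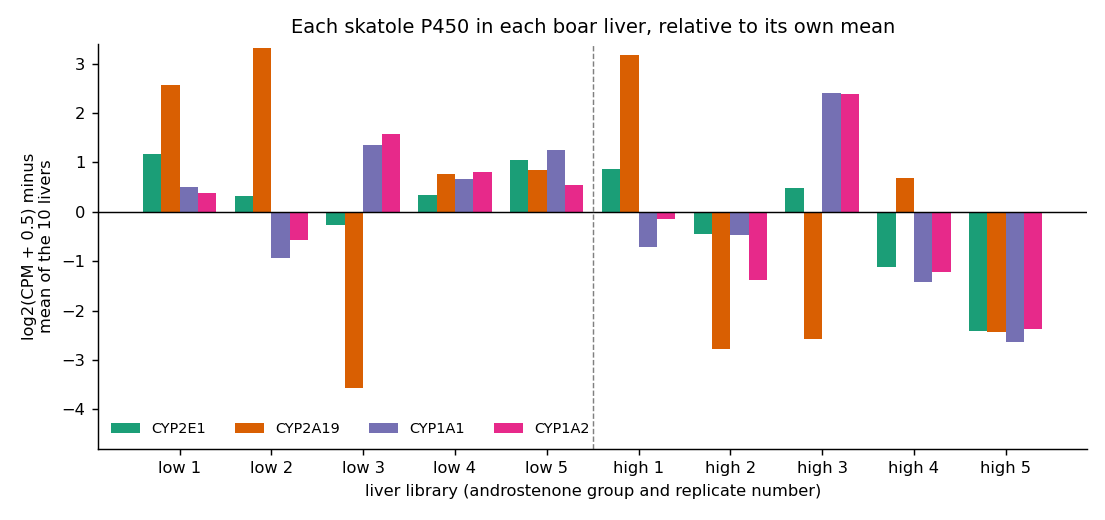
Bars give, for each of the 10 livers, the log2(CPM + 0.5) of each gene minus the mean of that gene over the 10 livers. CYP1A1 and CYP1A2 point the same way in all 10 livers, and CYP2A19 points the other way from them in 5. Liver high 2 and liver high 5 are below the mean for all 4 genes.

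Over the 10 livers, CYP1A1 and CYP1A2 rose and fell together. Pearson's r of the log2 values was 0.95 (permutation p = 0.0001 over 100000 resamples, adjusted p = 0.00180), and Spearman's rho was 0.915 (permutation p = 0.000660, adjusted p = 0.0119). The adjustment covered 18 relations, the 6 pairs of genes and each gene with the mean of 3 lists. Without the 2 livers farthest from the median of CYP1A1, high replicates 5 and 3, r was 0.873. It was 0.941 after centring each androstenone group (exact permutation p = 0.00257) and 0.943 after centring the 5 livers with fewer and the 5 with more total counts, a step chosen after the data were seen (exact permutation p = 0.000278). Leaving out each liver in turn gave r between 0.924 and 0.975. In the reference used here, reads that fit both transcripts could have been counted for both, and how such reads were treated is not given in the sources used here. The ratio of the pair, 2.76 to 7.80 counts of CYP1A1 per 100 of CYP1A2, was not constant.

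**Figure D5:**
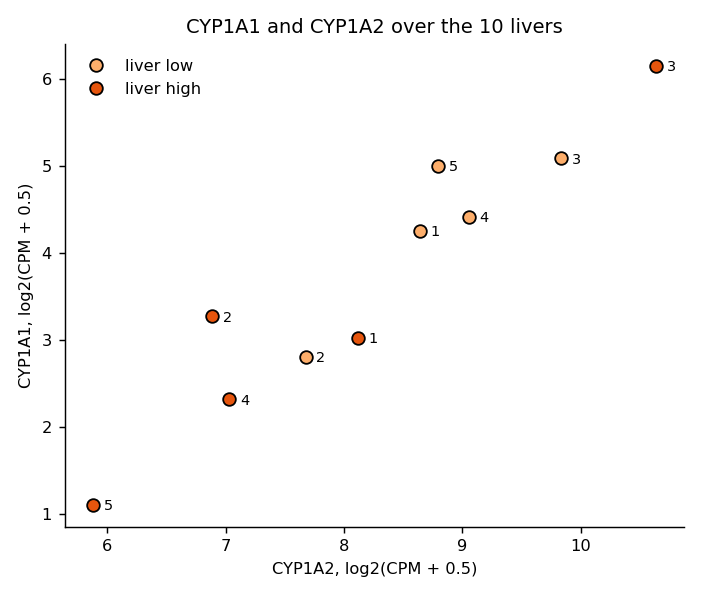
Each point is 1 liver, by CYP1A2 and CYP1A1 as log2(CPM + 0.5), numbered by replicate within the androstenone group. The 10 livers lie along one line from high 5 at the bottom to high 3 at the top (r = 0.95), and it still holds without these 2 (r = 0.873).

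The other pairs did not pass. CYP2E1 had r = 0.678 with CYP1A1 (permutation p = 0.0295, adjusted p = 0.167, rho 0.539 with adjusted p = 0.559) and r = 0.658 with CYP1A2 (permutation p = 0.0372, adjusted p = 0.167, rho 0.576 with adjusted p = 0.559). Without high replicates 5 and 4 these fell to 0.094 and 0.155, so both rested on the 2 livers with the lowest CYP2E1. Since the livers fell into 2 sets for CYP2A19, its relations were taken over the 6 livers of the upper set only. There r was 0.418 with CYP2E1, -0.341 with CYP1A1 and -0.156 with CYP1A2, with exact permutation p of 0.485, 0.536 and 0.753.

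In the liver lobule, CYP2E1 and CYP1A2 are known as enzymes of the hepatocytes near the central vein, as opposed to those near the portal tract. The mean log2 level of 8 other matched genes of the central vein side had r = 0.694 with CYP2E1 (permutation p = 0.0302, adjusted p = 0.167), which fell to 0.223 without high replicates 5 and 4. With CYP1A2 it was 0.353 and with CYP1A1 0.459, with adjusted permutation p of 0.664 and 0.648. With the 8 matched genes of the portal side, r was 0.041 for CYP2E1, 0.253 for CYP1A1 and 0.181 for CYP1A2. The 7 matched acute phase genes, which the liver makes in inflammation, gave 0.365, 0.344 and 0.286. None of these passed, with adjusted permutation p of 0.664 or more. After centring the androstenone groups, r of CYP1A1 with the portal side was 0.737 (exact permutation p = 0.0187, adjusted p = 0.168). For CYP2A19 over its 6 livers, r was 0.042 with the central vein side, -0.223 with the portal side and -0.501 with the acute phase genes, with adjusted p of 0.912, 0.828 and 0.664 from exact permutation tests.

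The genes most like each member were taken by Pearson's r of log2 values over the 10 livers among 2470 other IDs with a symbol and a mean of at least 10 CPM in liver, as a description. For CYP2E1 they were LEO1 (r = 0.904), MIOX (0.892), MKRN1 (0.859), IVNS1ABP (0.841) and C8G (0.840). Of these, MIOX, the oxygenase that breaks down myo-inositol, ranged from 10.6 to 197 CPM, and C8G, a chain of complement component 8, from 1064 to 2632 CPM, while LEO1 stayed between 20.3 and 34.3 CPM. For CYP2A19 they were FOXN3 (0.936), RNF214 (0.900), CLEC2D (0.898), WIPI1 (0.866) and MASP2 (0.865). Unlike its other relations, these were taken over both sets of livers, so the r values include the split between the sets. FOXN3, a forkhead repressor, ranged from 37.9 to 133 CPM. For CYP1A1 they were CLU (0.967), DCAF7 (0.961), DAP (0.949), SGPL1 (0.949) and CDC37 (0.948), the last a co-chaperone of HSP90. For CYP1A2 they were APEX2 (0.960), TFR2 (0.949), DCAF7 (0.946), MEA1 (0.942) and ARAF (0.936). DCAF7 stood in both CYP1A lists. CLU, the secreted chaperone clusterin, ranged from 2352 to 23237 CPM. All these values share the same 10 libraries and their depths.

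Several steps around the 4 enzymes were followed through gene lists. Of the later steps of skatole clearance, such as conjugation and reduction, 4 of 16 genes were matched, and no sulfotransferase, glucuronosyltransferase or aldehyde oxidase was among them. GSTO1 (log2 fold change 5.03), GSTA1 (3.78) and EPHX1 (2.83) were called higher in liver, and NQO1, a quinone reductase, higher in testis (-1.64). The list median was 3.31 against -0.31 over all IDs. Between the androstenone groups of liver none was called, and the smallest unadjusted p were those of GSTA1 (-0.83, unadjusted p = 0.0299) and EPHX1 (-0.41, unadjusted p = 0.341), both at an edgeR adjusted p of 0.9999. Of the proteins that pass electrons to P450s or bind them, 5 of 9 were matched, and PGRMC1 (3.23) and PGRMC2 (2.37), membrane partners of P450s, were called higher in liver, with a list median of 0.53. The other 3 were not called, and CYB5A and FDX1 were at -0.22 and 0.16 between the androstenone groups of liver.

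Of the genes of haem synthesis and breakdown, which supply the P450 cofactor, 4 of 12 were matched. ALAS1, the rate-limiting enzyme of haem synthesis, was called higher in liver (2.70), as was BLVRA (1.89), with a list median of 1.12. Between the androstenone groups, ALAS1 ranged from 201 to 449 CPM in the low and from 58.1 to 177.0 CPM in the high androstenone livers, so that the groups did not overlap, as for 0.555% of IDs tested. Its log2 fold change was -1.17 with an unadjusted p of 0.00443 and an edgeR adjusted p of 0.9999, so it was not called. BLVRA was next, at -0.30 with unadjusted p = 0.373 from the same edgeR fit.

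Of the AHR pathway, which controls both CYP1A genes, 6 of 11 genes were matched, and AHR itself was not among them. ARNT2 (-5.24), HSP90AA1 (-1.44) and PTGES3 (-1.08) were called lower in liver and NFE2L2 (0.66) higher, with a list median of -0.78. ARNT, the partner with which AHR binds DNA, was at -0.41. Between the androstenone groups of liver none of the 5 tested was called, and ARNT (-0.40, unadjusted p = 0.173) and HSP90AA1 (0.54, unadjusted p = 0.254) had the smallest unadjusted p in the edgeR fit.

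Of the transcription factors and receptors of hepatocytes, 15 of 20 were matched and 14 were called higher in liver, with a median of 6.22 against -0.31 over all IDs. The highest fitted values were those of FOXA2 (11.62), NR1H4 (8.56) and FOXA1 (7.79). FOXA2 was at 0 counts in all 10 testes and the others at under 1 CPM, so that these values depend on the prior count and are no measured folds. Between the androstenone groups of liver none was called. NR1I3 (-0.83, unadjusted p = 0.0107), the constitutive androstane receptor, and NR1I2 (-0.59, unadjusted p = 0.0223), the pregnane X receptor, had the smallest unadjusted p, both at an edgeR adjusted p of 0.9999. Both are receptors known to induce P450 genes. NR1I3 did not overlap between the groups, with 34.3 to 51.5 CPM in the low and 13.8 to 32.8 CPM in the high androstenone livers. Nor did NR1I2, with 81.7 to 101 CPM in the low and 41.5 to 68.4 CPM in the high androstenone livers. HNF4A, a factor of hepatocyte identity that was picked after its values were seen, did not overlap either, with 26.3 to 33.2 CPM and 17.2 to 25.03 CPM (-0.50, unadjusted p = 0.0438, edgeR adjusted p = 0.9999). Over all IDs tested, 0.555% did not overlap.

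Of the central vein side genes, 6 of 8 matched genes were called higher in liver, with LECT2 (13.32), RGN (6.72) and CYP7A1 (5.97) the largest, and GLUL, glutamine synthetase, was called higher in testis (-3.06). All 8 matched portal side genes were called higher in liver, the largest being ARG1 (12.69), TAT (11.82) and PCK1 (11.68), and so were all 7 matched acute phase genes, with HPX (14.43), HP (13.36) and CRP (10.72). The list medians were 3.81, 8.91 and 10.42. LECT2, CYP7A1, ARG1, TAT, PCK1 and CRP stayed under 1 CPM in every testis, so that their fitted values also depend on the prior count. None of the 3 lists had a call between the androstenone groups of liver in the edgeR fit. The study itself, with DESeq, called CYP7A1 lower and SDS and HAL higher in the high androstenone livers. Its qRT-PCR of CYP7A1 went the same way as its sequencing in these boars and showed a similar pattern in further boars. The smallest unadjusted p were those of CYP7A1 (-1.98, unadjusted p = 0.122) and RHBG (-0.71, unadjusted p = 0.256) on the central vein side, of SDS (2.11, unadjusted p = 0.00276) and HAL (1.94, unadjusted p = 0.00815) on the portal side, and of HAMP (6.98, unadjusted p = 0.000227) and SAA3 (-0.57, unadjusted p = 0.236) among the acute phase genes, each from the same edgeR fit at an adjusted p of 0.9999. HAMP was at 0 to 0.905 CPM in the low and 0.183 to 119.6 CPM in the high androstenone livers, and its groups overlapped. The list medians between the androstenone groups of liver were -0.37 for the 4 matched genes of the later steps, 0.01 for the electron partners, -0.14 for haem, 0.14 for the AHR pathway, -0.16 for the transcription factors, -0.09 for the central vein side, 0.34 for the portal side and -0.11 for the acute phase genes, beside -0.46 for the 4 P450 genes and 0.01 for all IDs tested. In testis, none of the 8 lists had a called gene between the androstenone groups in the edgeR fit, while the study called HAL higher in the high group there with DESeq.

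Some reference IDs without a symbol ran alongside the members. For CYP2A19, the counts of AY091516.1 were 0.897 to 1.04 times those of the member in the 6 livers with at least 20 counts (r = 0.996 over the 10 livers), with 2430 counts in all livers against 2413. For CYP1A1, AB052254.1 (r = 0.975) and XM_001927846.2 (r = 0.979) held 1979 and 2294 counts against 2007. These IDs may share reads with the member, so the counts of CYP2A19 and CYP1A1 are uncertain by reads that the counting could split. When their counts were added to those of the member, the log2 fold changes between tissues were 9.06 for CYP2A19 and 5.73 for CYP1A1, and those between the androstenone groups of liver were -0.70 and -0.23. This sum was chosen after the data were seen.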

How the data were processed

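The authors sequenced 1 library per sample as 100 bp single reads on an Illumina HiSeq, each on 1 lane of a single flow-cell, from cDNA made with the SMART kit. Per the labels the tools were CASAVA 1.7, BWA and SAMtools. The reads were aligned with BWA to RefSeq mRNA and UniGene transcripts of Sscrofa 9.2, and the authors deposited raw counts of reads per reference ID, without normalization. How reads that fit several transcripts were counted is not given in the sources used here. Each sample lists 21785 lines, and 10 IDs listed 4 times were used once. Symbols came from a RefSeq table of Sscrofa11.1 by accession with the version dropped.

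From the counts, TMM scaled CPM and edgeR 4.0.16 quasi-likelihood tests (R 4.3.3) were computed here, with Benjamini-Hochberg adjustment over all IDs with at least 10 summed counts. IDs were called where the adjusted p was below 0.05 and the change 1.5-fold or more, the limits of the first of the study's analyses. Its further condition, a second DESeq model, was not applied. Tissues and the interaction were fitted over 20 samples, androstenone groups within a tissue over 10. The SE and interval of an edgeR fit were derived from its fold change and F statistic, which is unreliable where the fold change is close to 0. Permutation tests were exact or used 100000 resamples on log2(CPM + 0.5), two-sided. The fits were checked on simulated counts with 200 IDs, drawn at random, changed by a log2 fold change of 2. They found 98.5% of them for the tissues, 81% in liver, 97.5% in testis and 61.5% for the interaction, and called 11, 7, 12 and 11 unchanged IDs. These shares do not give the power for the 4 genes, whose dispersion in liver was 1.47 to 8.74 times the trend. No library was a repeat of another within sampling noise. The alternatives were DESeq2 1.42.0, other scalings, filters and pseudocounts, summed IDs of a symbol, a replicate block, a single fit and leaving out each library. The split of the livers by total count and added parallel IDs were chosen after the data were seen, as was the split of the livers by CYP2A19. Members and lists were chosen with earlier results of these data known. The named genes were the members, the 5 symbols most like each, and from each list the 3 largest called changes per direction between tissues and the 2 smallest p between the androstenone groups of liver. Python 3.11.15, numpy 2.4.6, scipy 1.17.1, pandas 2.3.3 and matplotlib 3.10.9 were used.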

Additional observations from a re-analysis of the deposited data

Results flagged for a closer look

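Of 20 sets of values examined, each gene in each of the 4 groups and over all 10 livers, 4 held a library farther from the rest in CPM than Dixon's 95% limit, which chance exceeds in about 1 of 20 sets of normally distributed values. CPM values are skewed, and on the log2(CPM + 0.5) scale, tried after the data were seen, 0 of the 20 sets passed the limit, with gaps of 0.418 (CYP2A19), 0.571 (CYP1A1) and 0.530 (CYP1A2) of the range in the high androstenone livers and 0.210 for CYP1A1 over all livers. Which libraries stand apart thus depends on the scale. CYP2A19 in liver high replicate 1 was at 69.0 CPM, with the next of the group at 11.9 CPM, a gap of 0.835 of the group's range. CYP1A1 in liver high replicate 3 was at 70.7 CPM, with the next of its group at 9.16 CPM (a gap of 0.891 of the range). The same value was also far from the rest of all 10 livers, where the next was 33.6 CPM (0.537 of the range). With the total count alone as the scale it was 36.4 CPM, and the next, liver low replicate 3, was 26.6 CPM. The limit was not tried on that scale. CYP1A2 in liver high replicate 3 was at 1595 CPM after TMM scaling, with the next of its group at 277 CPM (0.858 of the range). Liver high replicate 3 is the deepest library, with 26783002 counts, and its hepatocyte marker sum was 201742 CPM. The part of depth in these values was not tested.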

How the results depend on the processing

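All 4 genes stayed called higher in liver under the 30 alternatives, and r of CYP1A1 with CYP1A2 stayed past the threshold under its alternatives, 0.924 to 0.975. In testis, DESeq2 called 52 IDs where edgeR called 0, and leaving out each library gave 0 to 2. For the interaction DESeq2 called 2. The interaction of CYP1A1, close to 0, was -0.0724 with RLE scaling, -0.33 with the total count only, -0.13 with DESeq2 and -0.0149 with at least 100 counts, and -1.72 to 0.39 when each library was left out. Leaving out each library gave -1.89 to 0.0572 for CYP1A1 and -1.74 to 0.18 for CYP1A2 between the androstenone groups of liver, and -0.27 to 0.23 for CYP2E1 and -0.62 to 0.0613 for CYP1A1 in testis. For CYP1A1 in testis, at least 100 counts left no value. Over the livers, r of CYP2E1 with the portal side was -0.0832 (RLE) and -0.269 (total count only), that of CYP2A19 with the central vein side -0.237 and -0.121, and with the total count only those of CYP1A1 and CYP1A2 with the portal side were -0.0781 and -0.0872. Leaving out each liver gave r of -0.888 to 0.105 for CYP2A19 with CYP1A2, -0.0137 to 0.655 for CYP2E1 with CYP2A19, -0.0920 to 0.323 for CYP2E1 with the portal side, -0.00247 to 0.578 for CYP2E1 with the acute phase genes, -0.372 to 0.431 for CYP2A19 with the central vein side, -0.115 to 0.388 for CYP1A1 with the portal side, and -0.0694 to 0.514, -0.247 to 0.291 and -0.00667 to 0.601 for CYP1A2 with the central vein side, the portal side and the acute phase genes. The cause of these changes was not tested. Same-numbered samples of testis and liver had correlations of deviations of -0.0621 to 0.427 over 10 pairs, 7 of them over 0.1, with 4 of 10 samples closest to their own number, short of every pair. The study took both tissues from the same boars, but no source ties the numbers to boars, so the block is an alternative only. With a replicate block, the tissue differences were 10.17, 8.32, 5.46 and 3.28 for CYP2E1, CYP2A19, CYP1A1 and CYP1A2, all still called. The interaction of CYP1A1 was -0.67 with the block, 14201 IDs were called between tissues and 0 in the other comparisons. Within a tissue, the block can only join a boar of one androstenone class to a different boar of the other class. That pairing is arbitrary, and with it CYP2E1 in testis was 0.13. Depth limits CYP2A19 and CYP1A1 most, since 4 livers held 11 or fewer counts of CYP2A19 and the testes 6 in all.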
